A study of Mus musculus with 20 samples.

Results

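The comparison described here sets the livers of 3 mice irradiated at a high dose-rate against the livers of 3 mice irradiated at a low dose-rate for 485 days, 6 of the 20 arrays of the series. The arrays were chosen by their titles alone, and no measured value entered the choice. All mice were male C57BL/6J, entered the experiment at 8 weeks of age, were kept free of specific pathogens and received whole-body 137Cs gamma rays for 22 h per day. The high group received 16.6 mGy per day (8030 mGy in all) and the low group 0.042 mGy per day (20.6 mGy in all), so the low group is itself an irradiated group. Beside them stand 3 mice at a medium dose-rate (0.858 mGy per day, 416 mGy in all) and 1 array of RNA pooled from 3 unirradiated mice, which has no spread of its own. A second experiment with other mice compared 20 mGy per day (8015 mGy) with 0.05 mGy per day (20 mGy) over 401 days, again with 3 arrays a group. Each irradiated array held the RNA of 1 mouse, whose liver was put in RNAlater right after exposure ended. The labels give neither the hour of killing nor the litters or cages. Mice are numbered below as in the array titles.

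Gamma rays break DNA and oxidize lipids and proteins, and cells answer with the p53 pathway, DNA repair and antioxidant genes. The liver stores glycogen, makes plasma proteins, lipoproteins, cholesterol and bile acids, and clears drugs, and its hepatocytes also follow the clock, glucocorticoids and feeding. It holds resident macrophages (Kupffer cells) and other immune cells that present antigen and answer to interferon. The comparison addresses which of these programmes differ between the dose-rates after long exposure.

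Little separated the dose-rates gene by gene. Of 11216 genes tested, 1 passed the adjusted threshold of 0.05 (0.00892%), Ppp1r3c, which rose at the high dose-rate, and 0 were lower at that threshold. Without adjustment 963 genes (8.59%) had a p below 0.05, against 560.8 expected by chance, 544 of them higher (4.85%) and 419 lower (3.74%). The arrays of the groups did not overlap for 650 genes with all high arrays above all low arrays (5.8%) and for 638 with all below (5.69%). Differences are given as high minus low on a log2(signal + 7.12) scale with the standard error of the fit, and p-values are from limma with Benjamini-Hochberg adjustment over all genes tested. A difference that did not pass is given as a value and not as a change.

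The arrays carried the hepatocyte transcripts of a liver. All 9 hepatocyte markers on the array passed the filter on signal, Alb among them, whereas most T and natural killer cell and neutrophil markers lay below it. The ratio of the 3′ to the 5′ probe set of Gapdh was 0.706 to 0.75 on the high arrays and 0.714 to 0.769 on the low arrays, so the groups overlapped. Correlations between arrays were 0.9652 to 0.968 within the high group, 0.959 to 0.9687 within the low group and 0.9532 to 0.971 between them. The largest axis of variation over the 6 arrays, with 29% of the variance, placed high mouse 2 at one end and low mouse 2 at the other, with the groups interleaved between.

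Signals at the top of the scale differed between the groups as a block. Among the 100 genes with the highest signals, 96 were higher at the high dose-rate, with a median difference of 0.19, and 44 did not overlap between the groups, all 44 of them higher. The highest signal was 91551 to 100765 on the high arrays and 72508 to 79862 on the low arrays. In the highest of 10 signal bins, 65.1% of genes were higher, against 49% of all genes. After quantile normalization, which forces the arrays to one distribution, the same 100 genes had a median of 0.004, with 52 above 0. After centring each array on its median, which leaves the shape of the distribution, the median was 0.23, with 97 above 0 and 20 apart, all of them higher. Medium minus low gave 0.13 for these genes, the control pool minus low 0.005, and the second experiment -0.06. For lists and genes of very high signal the quantile value is therefore given where it is much smaller or turns sign.

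**Figure D1:**
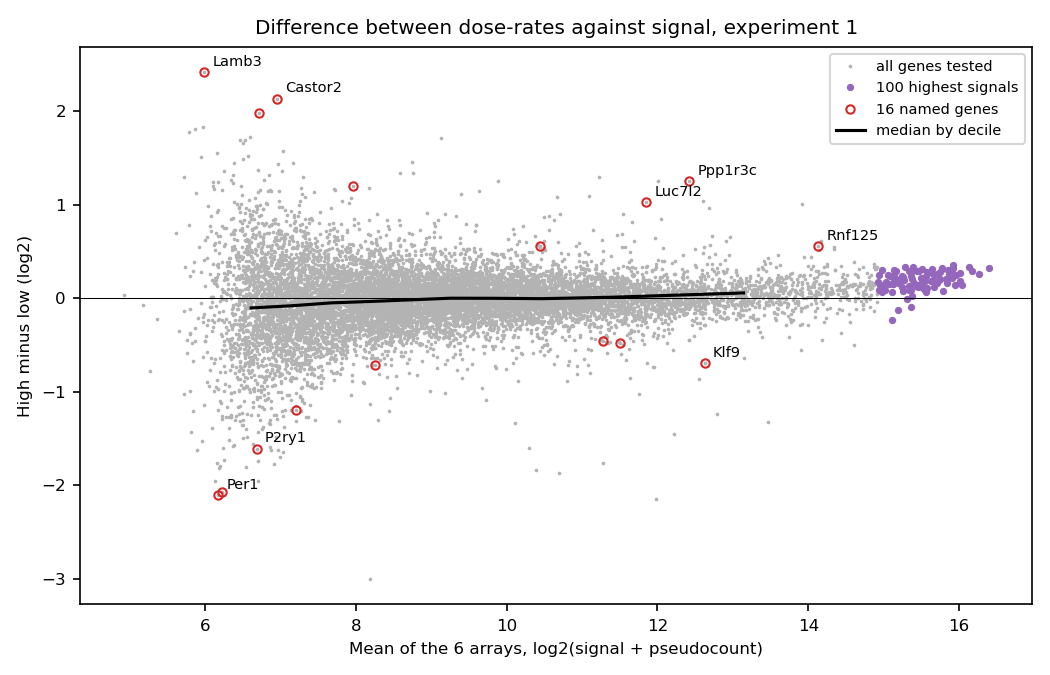
Difference between the high and low groups of the first experiment (log2, vertical axis) against the mean signal of the 6 arrays (log2, horizontal axis), 1 point per gene tested, with the medians of 10 signal bins as a line. The 100 genes of highest signal lie mostly above 0 (96 of 100), and Ppp1r3c lies at 1.25.

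Ppp1r3c encodes a subunit that brings protein phosphatase 1 to glycogen and so promotes glycogen synthesis. Its signal was 7430.3, 8007 and 10215 in the high mice and 3888, 2753 and 4199 in the low mice. Every high mouse lay above every low mouse, with means of 8551 ± 1469.8 (SD, n = 3) and 3613 ± 761.5 (SD, n = 3). The difference was 1.25 ± 0.19 on the log2 scale, or 2.38-fold (adjusted p = 0.0493, limma). The medium mice, at 7112, 9097 and 6733, lay above the low mice too, and the control pool read 5242, between the groups. In the second experiment the high mice (6767, 7828 and 7516) again lay above the low mice (4882, 4375 and 5896), with a difference of 0.55 ± 0.19 (adjusted p = 0.415), and the other probe set of the gene had the same sign. The call sits at the threshold: it held in 4 of 18 alternatives, with differences of 1.07 to 1.37 and adjusted p of 0.0193 to 0.216 over all of them.

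The promoter of Ppp1r3c is printed because it belongs to the only gene called. The RefSeq window on GRCm38.p6 is chr19:36736555-36736854 on the minus strand, written 5′ to 3′ from 250 bases before the start of the gene to 50 after it. Capitals mark the only CACGTG, an E-box hexamer, searched on both strands, whose first base lies 104 bases upstream of the start. Other forms of the E-box were not searched. Basic helix-loop-helix factors of the clock and of carbohydrate sensing are known to bind this hexamer.
Ppp1r3c: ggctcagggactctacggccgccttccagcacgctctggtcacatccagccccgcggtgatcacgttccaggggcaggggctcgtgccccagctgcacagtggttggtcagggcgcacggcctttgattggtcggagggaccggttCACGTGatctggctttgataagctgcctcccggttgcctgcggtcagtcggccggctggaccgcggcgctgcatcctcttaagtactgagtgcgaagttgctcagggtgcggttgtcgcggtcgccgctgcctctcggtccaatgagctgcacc
Of 32851 promoter windows of the same length, 7.15% hold CACGTG, so the match is common and says nothing on binding.

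The other 7 genes named as higher were chosen by the smallest unadjusted p among genes whose groups did not overlap, and none of them passed. Rnf125, a ubiquitin ligase that acts on RIG-I-like RNA sensors, read 20947, 22342 and 22214 in the high mice and 13816, 14324 and 16403 in the low mice. All high mice lay above all low mice and the control pool, at 10308, was below every irradiated mouse. The difference was 0.56 ± 0.10 (adjusted p = 0.103; 0.47 under quantile normalization), and in the second experiment the groups again did not overlap, at 0.26 ± 0.10 (adjusted p = 0.473). Luc7l2, a splicing factor associated with the U1 particle, read 4260, 5978 and 5780 against 2293, 2991 and 2497, with the high mice above. It differed by 1.03 ± 0.19 (adjusted p = 0.103), its 5 other probe sets had the same sign, and the second experiment gave 0.42 with groups apart.

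Zfp148, a zinc finger transcription factor, read 1728, 1548 and 1798 in the high mice and 1265, 1150.3 and 1019.7 in the low mice, a difference of 0.56 ± 0.11 (adjusted p = 0.103). 3 of its 5 other probe sets had the opposite sign, and the median over its probe sets was -0.12, so its direction rests on the probe set used. Gm13306, a gene known by its model name, read 317, 501 and 320.3 against 130, 153 and 194, at 1.21 ± 0.22 (adjusted p = 0.103).
Of low signal were Castor2, a homologue of the arginine sensor of the mTORC1 pathway, Lamb3, a laminin chain, and Limk1, a kinase of the actin regulator cofilin. Castor2 read 354, 271 and 168 in the high mice and 94.6, 62.0 and 22.3 in the low mice (2.14 ± 0.42, adjusted p = 0.113). Lamb3 read 188, 121 and 119 against 11, 8.2 and 67.0 (2.42 ± 0.49, adjusted p = 0.131), and Limk1 read 206, 186 and 218 against 46.5, 64.1 and 31.6 (1.99 ± 0.40, adjusted p = 0.131). The readings of these 3 genes in the low mice lie near or under the array medians of 81.3 to 104.8. The control pool read 94.7 for Castor2 and 186 for Limk1, and in the second experiment the high and low mice overlapped for all 3 genes.

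None of the 8 genes named as lower passed either. Klf9, a transcription factor induced by glucocorticoids and thyroid hormone, read 4734, 5038 and 5143 in the high mice and 7386, 10223 and 6848 in the low mice. The groups did not overlap, the medium mice lay between them at 6066 to 6583, and the control pool read 7722. The difference was -0.69 ± 0.16 (adjusted p = 0.18). Among its 5 other probe sets, 1 had the opposite sign. Rab10, a small GTPase of vesicle traffic, read 2410.1, 2492 and 2488 against 3489, 3534 and 3243, at -0.47 ± 0.11 (adjusted p = 0.18), and Ube2r2, a ubiquitin-conjugating enzyme, read 1982, 2002 and 2348 against 2809.9, 2785 and 3108, at -0.46 ± 0.11 (adjusted p = 0.18). The control pool read 2671 for Rab10 and 2075 for Ube2r2, nearer the high group than the low group. For Rab10 1 of 2 other probe sets had the opposite sign.

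P2ry1, a receptor for extracellular ADP, read 48.1, 61.2 and 47.4 in the high mice against 189, 181 and 151 in the low mice, at -1.61 ± 0.31 (adjusted p = 0.103). Medium mice lay between, at 64.3, 114 and 81.9. Tob2, which acts in the control of growth and of messenger decay, differed by -0.71 ± 0.16 and Itm2a, a membrane protein, by -1.19 ± 0.27 (adjusted p = 0.18 for both), but the only other probe set of Itm2a and 1 of 4 of Tob2 had the opposite sign. A330009N23Rik differed by -2.07 ± 0.44 (adjusted p = 0.161). Per1, a repressor of the clock that glucocorticoids also induce, read 33.4, 7.9 and 62.7 in the high mice and 208, 104 and 134 in the low mice (-2.11 ± 0.50, adjusted p = 0.18), with the control pool at 209.7 and low signals throughout.

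**Figure D2:**
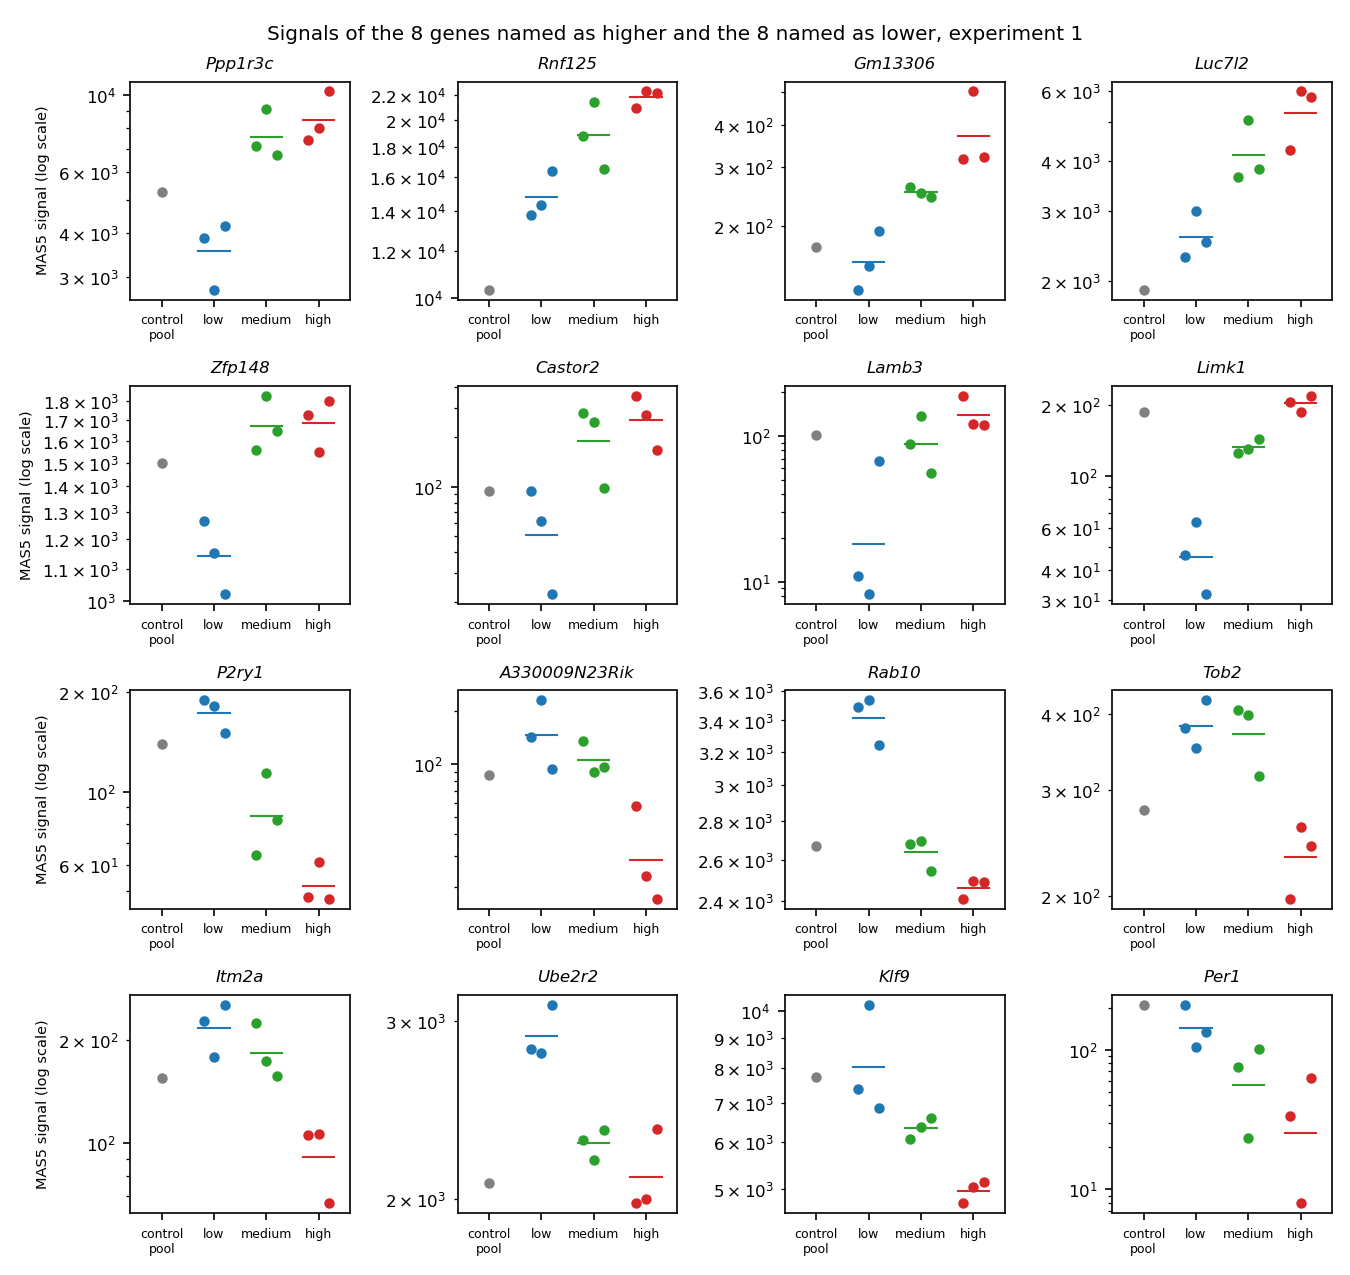
MAS5 signal (log axis) of the 8 genes named as higher and the 8 named as lower, with 1 point per array of the first experiment and the geometric mean of each group of 3 as a bar; the control pool is 1 array. In each panel the high and low points do not overlap, and only Ppp1r3c passed the adjusted test.

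The second experiment shares no array with the first and gives the same contrast in other mice. No gene passed there in limma (0%), and 952 (8.49%) had an unadjusted p below 0.05. Across genes the differences of the experiments had a Pearson correlation of 0.1015, a description over 11216 genes that are not independent. Of the 650 genes whose high mice all lay above the low mice, 56.8% had a higher mean in the second experiment, against 50.6% of all genes, and 10.6% did not overlap in the same direction, against 7.51%. Of the 638 genes with all high mice below, 59.6% had a lower mean there, against 49.4%, and 11% did not overlap, against 7.79%. Of the 16 genes described above, Ppp1r3c, Rnf125, Luc7l2 and A330009N23Rik were apart in the same direction in both experiments.

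The test of the difference between the experiments called no gene (0%) in limma, with 777 genes (6.93%) at an unadjusted p below 0.05 and a smallest adjusted p of 0.1399. Zcchc2, a zinc finger gene, headed the list. It read 874, 1065 and 841 in the high mice and 558, 524 and 505 in the low mice, but 506, 597 and 615 against 1136, 1178 and 838 in the second experiment. The groups were apart in opposite directions, by 0.80 ± 0.20 and -0.86 ± 0.20, a difference of 1.65 ± 0.28 (adjusted p = 0.14). Gnat1 and Lrat, which serve vision and the storage of retinol in stellate cells, and Txndc11, a thioredoxin-domain protein, were next beside H2-Eb1. Lrat differed by -0.30 in the first experiment and 0.72 in the second, and Txndc11 by 0.65 and -0.64. When only the 12 high and low arrays were fitted, Zcchc2 was called (adjusted p = 0.031).

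H2-Eb1 belongs to the MHC class II genes, which encode the molecules that present peptides to helper T cells and are made by B cells, dendritic cells and macrophages. All 5 of the 5 class II genes tested had differences below 0 in the first experiment, with a median of -0.70, and 2 of them did not overlap, against 5.69% of all genes apart in that direction. In the second experiment all 5 lay above 0, with a median of 0.70. None passed an adjusted test in either. H2-Eb1 read 1332, 1074 and 1293 in the high mice and 2157, 1359.7 and 2744 in the low mice. The low mouse 2 lay close to the high mice and the other two low mice well above. The difference was -0.70 ± 0.18 (adjusted p = 0.222), that of the second experiment 0.71 ± 0.18 (adjusted p = 0.288), and the difference between them -1.42 ± 0.26 (adjusted p = 0.187).

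Cd74, the invariant chain that escorts class II molecules, read 1448, 1239.9 and 1765 against 2478, 1849.6 and 3746, again with low mouse 2 nearest to the high mice and no overlap (-0.81 ± 0.25, adjusted p = 0.304). H2-Ab1 read 596, 522 and 619 against 1091, 566 and 1362, so the groups overlapped through low mouse 2. Without that mouse the list median was -0.98, and without low mouse 3 it was -0.44. Without low mouse 2, H2-Eb1 passed in the first experiment (-0.98, adjusted p = 0.02), and H2-Eb1 and H2-Ab1 passed in the test between experiments (-1.70, adjusted p = 0.00136, and -1.82, adjusted p = 0.0056). That mouse was the low mouse nearest to the high mice, so leaving it out had to widen these differences. These passes are therefore no support for a difference. In the medium mice H2-Eb1 read 1309, 1254 and 1559, and in the control pool 948, below every irradiated mouse of the first experiment, the high mice included. From the mean of the 6 arrays (log2), the class II list stood at 0.35, -0.21 and 0.80 in low mice 1 to 3. It stood at -0.23, -0.49 and -0.14 in the high mice, at -0.73, -0.36 and 0.02 in the medium mice and at -0.72 in the control pool.
Most markers of the cells that carry class II lay below 0 too in the first experiment. Over the B and plasma cell list 6 of 7 genes lay below 0, and the sum of its signals was 2672 to 3418 in the high mice and 2164 to 7218 in the low mice; Cd79a lay under the filter on signal. Over the Kupffer cell and macrophage list 13 of 14 lay below 0, with sums of 33075 to 40891 and 33458 to 48131. Ighm, the mu heavy chain, read 1874, 1612 and 1518 in the high mice and 4762, 1012 and 4962 in the low mice, low again in low mouse 2. In the second experiment, where class II lay above 0, the B cell list had a median of 0.02 (4 of 7 above 0) and the Kupffer list -0.07 (6 of 14 above 0). In whole liver, fewer cells of a type and less RNA per cell cannot be told apart, and the part of these cells in the class II values was not tested.

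**Figure D3:**
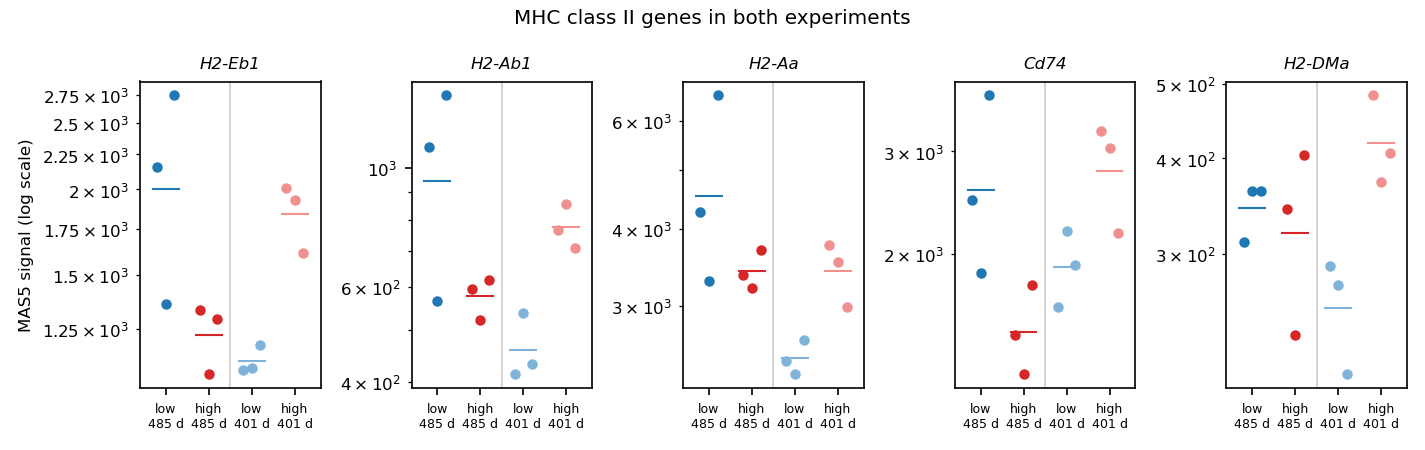
MAS5 signal (log axis) of the 5 MHC class II genes tested, with 1 point per mouse and geometric means as bars, for the low and high groups of both experiments. At 485 days the high points of H2-Eb1 and Cd74 lie below all low points, and at 401 days the high points lie above the low points for all genes but Cd74, which overlaps.

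Promoters of H2-Eb1 and H2-Aa are printed because class II genes are known for a shared upstream element, the Y box, bound by the factor NF-Y. The RefSeq windows on GRCm38.p6 are chr17:34305617-34305916 on the plus strand for H2-Eb1 and chr17:34287774-34288073 on the minus strand for H2-Aa. Capitals mark TGATTGG, searched on both strands, which lies 61 and 50 bases upstream of the start. Of all windows 7.82% hold it.
H2-Eb1: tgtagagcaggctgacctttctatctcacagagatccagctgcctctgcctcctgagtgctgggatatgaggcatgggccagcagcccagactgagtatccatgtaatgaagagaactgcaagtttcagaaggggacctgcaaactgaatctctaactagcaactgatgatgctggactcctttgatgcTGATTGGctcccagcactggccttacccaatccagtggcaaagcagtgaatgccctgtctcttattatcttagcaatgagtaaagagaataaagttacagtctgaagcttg
H2-Aa: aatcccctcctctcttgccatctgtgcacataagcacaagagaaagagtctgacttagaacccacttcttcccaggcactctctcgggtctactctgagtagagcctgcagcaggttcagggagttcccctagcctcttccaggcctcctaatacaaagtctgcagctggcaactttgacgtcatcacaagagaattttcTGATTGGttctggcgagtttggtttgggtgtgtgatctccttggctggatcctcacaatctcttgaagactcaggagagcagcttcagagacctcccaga

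Genes induced by interferon lay the other way. All 25 of 25 genes tested of the type I interferon response were above 0, with a median of 0.35, 8 of them at an unadjusted p below 0.05, 0 called, and 1, Parp14, without overlap (5.8% of all genes). The second experiment gave a median of 0.33, with 21 of 25 above 0. Rtp4, a chaperone of receptors induced by interferon, read 2410.2, 6429 and 2117 in the high mice and 1398, 1107 and 2147 in the low mice. High mouse 2 stood well above the rest and the groups overlapped (1.10 ± 0.33, adjusted p = 0.285). Rsad2, the antiviral viperin, followed it with 1505, 5218 and 1657 against 906, 959.9 and 1566 (1.08 ± 0.40, adjusted p = 0.438), and Ifih1, a sensor of double-stranded RNA, gave 0.47 ± 0.16 (adjusted p = 0.383). The list median was 0.23 without high mouse 2 and 0.15 without low mouse 2, whose interferon genes were the lowest of the 6. Its extracellular matrix and stellate cell genes were the lowest too, with list medians of -0.64 and -0.53 from the mean of the 6 arrays on the log2 scale. On that scale the interferon list stood at -0.06, -0.63 and 0.12 in low mice 1 to 3 and at 0.18, 0.70 and -0.14 in high mice 1 to 3. The medium mice, at -0.59, -0.66 and -0.55, and the control pool, at -0.56, lay at the level of low mouse 2 and below the other 5 mice.

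Interferon-inducible GTPases, which act against pathogens inside cells, had a median of 0.33 (0.21 without high mouse 2), with 8 of 10 above 0. Irgm2 read 1378, 2434 and 1343 in the high mice and 1170, 1031 and 1132 in the low mice, with all high mice above (0.57 ± 0.19, adjusted p = 0.383). It was also apart in the second experiment (0.51 ± 0.19, adjusted p = 0.473). The control pool, at 795, and the medium mice, at 762 to 865, lay below both groups. Class I and peptide loading genes, which interferon also induces, had a median of 0.12 (0.10 under quantile normalization). Of 10 tested, 1 was apart upward (5.8% of all genes) and 1 downward (5.69%). B2m was higher (0.27 ± 0.09, adjusted p = 0.332, and 0.11 under quantile normalization) and Psmb9, an immunoproteasome subunit, lower (-0.45 ± 0.20, adjusted p = 0.543).
The promoter of Irgm2 is shown for the core of the interferon response element, GAAA and GAAA with any 2 bases between them, the kind of site through which interferon acts. The RefSeq window on GRCm38.p6 is chr11:58214727-58215026 on the plus strand, the capitals mark the match, 64 bases upstream of the start, and 3.44% of all windows hold the pattern on either strand.
Irgm2: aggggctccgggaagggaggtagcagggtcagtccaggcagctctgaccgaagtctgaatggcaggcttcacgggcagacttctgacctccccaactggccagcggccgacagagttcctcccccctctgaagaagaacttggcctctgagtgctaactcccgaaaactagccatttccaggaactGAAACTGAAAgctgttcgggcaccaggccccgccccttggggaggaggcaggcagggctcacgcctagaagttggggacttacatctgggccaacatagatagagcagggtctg

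Acute phase genes, the plasma proteins that hepatocytes make in inflammation, stood high in a single mouse of the low group. The list had a median of -0.26, with 18 of 24 genes below 0, and without low mouse 1 it had a median of 0.04. Saa2, a serum amyloid, read 1569, 1455 and 3022 in the high mice and 44496, 2395 and 5712 in the low mice (-2.15 ± 0.75, adjusted p = 0.399). Low mouse 1 exceeded every other mouse many times over, and the remaining low mice overlapped the high mice. The same mouse led in Lcn2, an iron-binding defence protein (28487, against 512 to 2149 in the other 5 mice), Orm2, an alpha-1-acid glycoprotein (31267, against 1113 to 2681), and Mt1, a metallothionein (11343, against 565 to 1302). Orm3 was the only member of the 24 apart, against 5.69% of all genes apart downward. It read 223, 168 and 19.7 in the high mice and 1752, 392 and 782 in the low mice (-3.00 ± 0.82, adjusted p = 0.229).
The neutrophil list as a whole was highest in the same mouse. Their list, of which 4 of 10 genes on the array passed the filter, had a median of -0.61 and of 0.08 without low mouse 1, and the sum of its signals was 702 to 1290.2 in the high mice and 595 to 3616 in the low mice. S100a9 read 1096 in low mouse 1 and 199 to 518 in the other 5 mice. Ngp was higher in all 3 low mice, at 186, 144 and 173, than in the high mice, at 110, 115 and 74.2 (-0.72 ± 0.53, adjusted p = 0.745). It was the only 1 of the 4 apart, against 5.69% of all genes apart downward. Camp, Ltf, Elane and Mpo lay below the filter. Of them Ltf read 72 to 128 in the low mice and 8.2 to 24.9 in the high mice, and the others overlapped. The part of these cells in the acute phase values was not tested.

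Sex-biased genes, which follow the pulses of growth hormone in the male, stood apart in high mouse 2. Male-biased genes had a median of -0.29, with 15 of 17 below 0 and 0 apart, and a median of 0.15 without that mouse. The growth factor receptor gene Egfr, higher in males, read 2869.8, 905 and 5408 in the high mice and 7133, 5602 and 2956 in the low mice (-1.02 ± 0.60, adjusted p = 0.672), lowest in high mouse 2. C6, a complement component, was at 967 in that mouse and at 3122 to 4629 in the other 5. Female-biased genes had a median of 0.21, and of 0.08 without that mouse, and 4 of 16 were apart with the high mice above (5.8% of all genes). Among them Cyp2b9 read 5082, 11998 and 4212 against 2219, 2265 and 3733, and Abcd2, a peroxisomal transporter, 394, 876 and 634 against 248, 151 and 341 (1.34 ± 0.54, adjusted p = 0.483). In the second experiment the male-biased median was -0.51 and the female-biased 0.50.

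**Figure D4:**
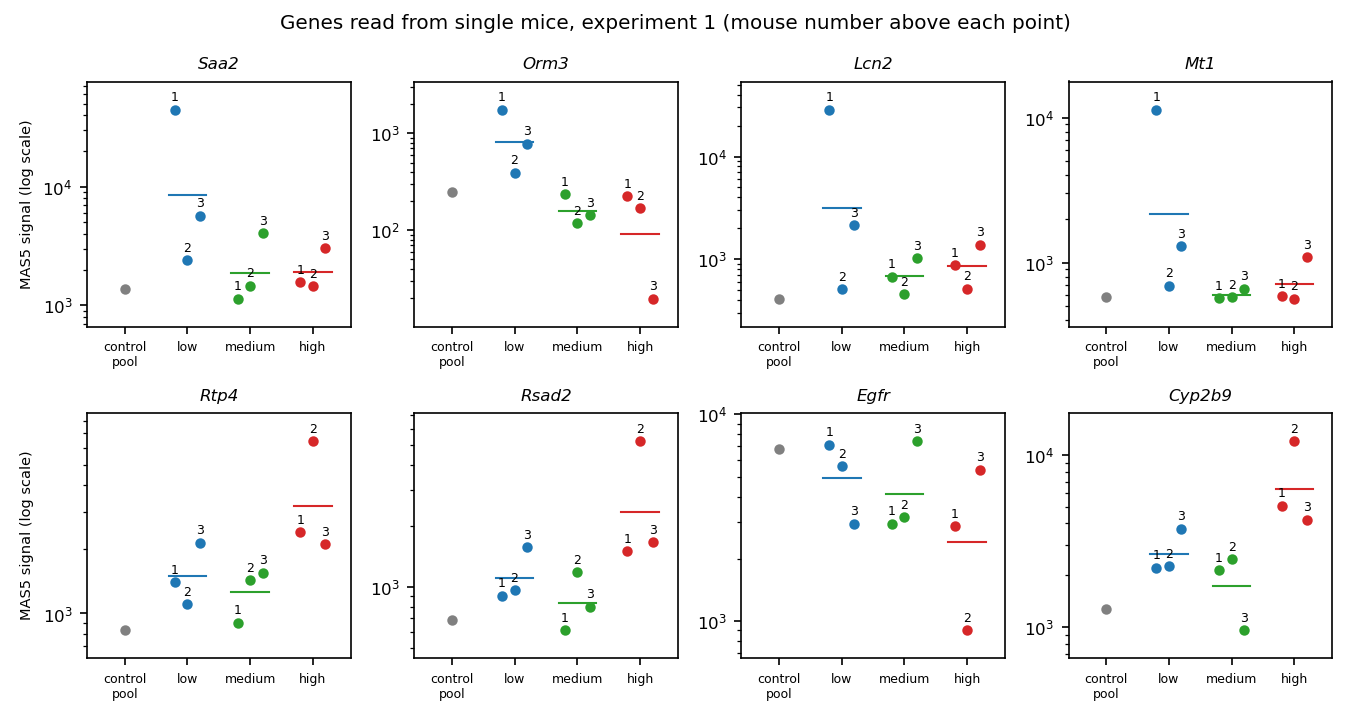
MAS5 signal (log axis) of 8 genes of the acute phase, interferon and sex-biased lists in the first experiment, with the mouse number above each point and geometric means as bars; the control pool is 1 array. Low mouse 1 stands above all others for Saa2, Lcn2 and Mt1, and high mouse 2 is highest for Rtp4, Rsad2 and Cyp2b9 and lowest for Egfr.

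The metabolic lists had modest medians and no member called, and many of their genes are read at very high signal. Of the 1122 genes in the highest of the 10 signal bins, 115 were apart upward and 34 downward. The median signals of the apolipoprotein (20877), oxidative phosphorylation (12588) and fatty acid oxidation lists (8337) lie in that bin. Those of the drug-metabolizing (15467) and urea cycle lists (13279) lie there too. For these lists the share of all genes apart upward is therefore a low yardstick. Apolipoprotein and lipid transport genes had a median of 0.24, with 18 of 21 above 0 and 6 apart upward (5.8% of all genes), but a median of 0.02 under quantile normalization and -0.05 in the second experiment. Apoe read 62438, 71557 and 70778 in the high mice and 55170.2, 56944 and 53099 in the low mice, apart by 0.31 ± 0.09 (adjusted p = 0.238; 0.07 under quantile normalization). Hepatocyte markers had a median of 0.20 and of -0.003 under quantile normalization, with Alb, the albumin gene, at 0.35 ± 0.09 (adjusted p = 0.18; 0.13 under quantile normalization). Oxidative phosphorylation subunits had a median of 0.14, with 41 of 47 above 0 and 6 apart upward (5.8% of all genes), and 0.07 under quantile normalization. It was 0.07 without low mouse 1 and 0 in the second experiment, with 24 of 47 above 0. Cox4i1, a subunit of cytochrome oxidase, differed by 0.27 ± 0.09 (adjusted p = 0.33; 0.16 under quantile normalization).

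Genes of fatty acid oxidation had a median of 0.19, with 33 of 36 above 0, and 0.13 under quantile normalization. All 7 members apart were higher, against 5.8% of all genes and 115 of 1122 in the highest signal bin. The median was 0.09 without low mouse 2 and 0.03 in the second experiment. Cyp4a14, a fatty acid hydroxylase and target of PPAR alpha, read 18097, 24148 and 23859 in the high mice and 11119, 10270.2 and 11178 in the low mice. All high mice lay above all low mice, by 1.01 ± 0.28 (adjusted p = 0.233), and the second experiment gave 0.31 with overlap. Ppara itself read 7200.3, 8434 and 9037 against 6486, 5084 and 6248 (0.47 ± 0.17, adjusted p = 0.429). Fabp1, the fatty acid binding protein of liver, differed by 0.32 ± 0.07 (adjusted p = 0.18) but by -0.03 under quantile normalization. Angptl4, an inhibitor of lipoprotein lipase and also a PPAR target, lay the other way, at -0.72 ± 0.28 (adjusted p = 0.468), and at -1.24 with groups apart in the second experiment. Of lipid droplet genes G0s2, an inhibitor of triglyceride lipase, read 7934, 9501 and 10383 against 4928, 4414 and 4815, apart by 0.97 ± 0.27 (adjusted p = 0.238), with -0.29 in the second experiment. Its signal in the medium mice (9307, 13165 and 8657) and in the control pool (8705) also lay above that of every low mouse.

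Cholesterol synthesis genes had a median of 0.26, with 17 of 20 above 0, 8 at an unadjusted p below 0.05 and 0 called. Without overlap were 4 members upward, against 5.8% of all genes, and 1 downward, the mevalonate pathway kinase Pmvk (-0.29, adjusted p = 0.71), against 5.69%. The second experiment gave 0.36, with 18 of 20 above 0. Sqle, squalene epoxidase, read 1096.5, 488 and 1902 in the high mice and 208, 415 and 317 in the low mice, so that high mouse 2 lay just above the highest low mouse (1.72 ± 0.53, adjusted p = 0.316). It was apart in the second experiment too (1.46 ± 0.53, adjusted p = 0.442). Hmgcs1, which makes the precursor HMG-CoA, read 18139.5, 21028 and 31355 against 12485, 16161 and 16421 (0.62 ± 0.18, adjusted p = 0.271). High mouse 3 was highest for both Hmgcs1 and Sqle, and the list median was 0.11 without it. The genes of fatty acid synthesis had a median of 0.08, which was -0.12 without high mouse 2 and -0.08 without low mouse 2. In the second experiment it was 0.34, with 19 of 21 above 0. Scd1, the desaturase, differed by 0.19 ± 0.10 (adjusted p = 0.628) and by -0.07 under quantile normalization.

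In bile acid synthesis Cyp8b1, the sterol 12-alpha-hydroxylase, read 8862, 7871 and 10029 in the high mice and 3524.5, 4523 and 5068 in the low mice. All high mice exceeded all low mice, by 1.04 ± 0.35 (adjusted p = 0.378), and the second experiment gave 0.90 with overlap. Nr0b2, the repressor SHP, was apart as well, at 4264, 4242 and 3748 against 1925, 2359 and 2289 (0.90 ± 0.31, adjusted p = 0.401), with -0.30 in the second experiment. Abcg8, which exports sterols into bile, was apart downward, at 1293, 1209 and 1039 against 1741, 1438 and 1910.3 (-0.52 ± 0.13, adjusted p = 0.218), as in the second experiment (-0.38). Cyp7a1, the first enzyme of the classic pathway, overlapped (0.19 ± 0.45, adjusted p = 0.932). The whole list of 21 had a median of 0.08 and of 0.02 under quantile normalization.

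Drug-metabolizing enzymes had a median of 0.07, and of -0.04 under quantile normalization, with 5 of 35 apart upward (5.8% of all genes) and 3 downward (5.69%). Cyp3a25 (0.37 ± 0.08, adjusted p = 0.146) and Cyp3a11 (0.32 ± 0.07, adjusted p = 0.18) were apart upward, at 0.23 and 0.12 under quantile normalization, whereas Cyp3a13 of the same family was apart downward (-0.34 ± 0.09, adjusted p = 0.222), as was Cyp26a1, which degrades retinoic acid (-0.86 ± 0.35, adjusted p = 0.497). The second experiment gave -0.14 for Cyp3a11 and 1.15 for Cyp26a1, both apart in the direction opposite to the first. Urea cycle and amino acid genes had a median of 0.08 (-0.06 under quantile normalization), with 4 of 19 apart upward and 3 downward, against the same shares of all genes. Ass1, argininosuccinate synthase, read 605, 324 and 395 against 203, 163 and 188 (1.18 ± 0.32, adjusted p = 0.229), and Glud1, glutamate dehydrogenase, differed by 0.34 ± 0.09 (adjusted p = 0.222). The Ass1 probe set reads far below the median signal of its list, 13279. No other probe set assigned to Ass1 alone passed the filter, so its value rests on this low signal. Of the methionine cycle Gnmt (0.31 ± 0.11, adjusted p = 0.421) and Mat1a (0.33 ± 0.13, adjusted p = 0.46) were apart upward, at 0.15 and 0.19 under quantile normalization, in a list with a median of 0.01 (-0.02 under quantile normalization). Of the 17 methionine and homocysteine genes tested, 5 were apart upward (5.8% of all genes) and 2 downward (5.69%). Their median signal, 7000, lies in the highest signal bin too. Slc2a2, the glucose transporter of hepatocytes, was apart at 0.37 ± 0.12 (adjusted p = 0.34), in a list with a median of 0.07 (-0.03 under quantile normalization), while the gluconeogenic gene G6pc overlapped (0.40 ± 0.34, adjusted p = 0.779).

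Glucocorticoid-induced genes had a median of -0.34, with 13 of 18 below 0, 4 apart downward (5.69% of all genes) and 1 upward (5.8%), and the second experiment gave -0.30. Beside Klf9 and Per1, Cebpd, a transcription factor of the acute phase, read 321, 178 and 190 in the high mice and 791, 354 and 502 in the low mice (-1.21 ± 0.29, adjusted p = 0.18). Dusp1, a phosphatase of MAP kinases and an immediate early gene, lay the other way, at 4586, 2642 and 4381 against 1400.5, 1786 and 1408. All high mice were above all low mice (1.30 ± 0.31, adjusted p = 0.18), and the second experiment gave -0.30 with overlap. Fkbp5 (-0.09, adjusted p = 0.929) and Tat (-0.05, adjusted p = 0.955), known targets of the receptor, overlapped. The list median was -0.14 without low mouse 1, the mouse with the high acute phase signals, and -0.18 without high mouse 2.
Clock genes had a median of 0.01, with 10 of 19 above 0. Of the 19, 3 were apart upward (5.8% of all genes) and 1 downward (5.69%). Besides Per1 at its low signal, Npas2 and Arntl, activators of the clock, were apart upward, at 1.13 ± 0.46 (adjusted p = 0.485) and 0.54 ± 0.27 (adjusted p = 0.609), while the output gene Dbp (-0.34, adjusted p = 0.844) and the repressor Nr1d1 (0.09, adjusted p = 0.942) overlapped. Since the labels give no hour of killing, dose-rate and time of day cannot be told apart for these genes.

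Heat shock chaperones had a median of -0.15, with 5 of 20 apart downward (5.69% of all genes) and 1 upward (5.8%), and -0.20 in the second experiment. Without high mouse 1 it was -0.24. Hspa1b, the inducible HSP70, read 943, 446 and 836 in the high mice and 3698, 2916 and 1518 in the low mice. The high mice all lay below the low mice (-1.84 ± 0.57, adjusted p = 0.316), as they did in the second experiment (-1.90 ± 0.57, adjusted p = 0.35), and the control pool, at 5454, exceeded all 6. Hspb8, a small heat shock protein, read 2557, 2196 and 2586 against 3771, 2707 and 3780.2 (-0.47 ± 0.13, adjusted p = 0.233). Genes of ER stress and the amino acid response had a median of -0.04 (0.002 after centring the arrays), with 1 of 25 apart upward (5.8% of all genes) and 1 downward (5.69%). Their median was -0.31 in the second experiment.

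Of the genes most tied to radiation damage, p53 targets had a median of 0.29, with 15 of 22 above 0. Without overlap were 6 of 22 (27.3%), 4 upward and 2 downward, against 11.5% of all genes in either direction, and 0 were called. The second experiment gave a median of 0.21. Mdm2, the ubiquitin ligase that restrains p53 and is its target, read 795, 555 and 841 in the high mice and 492, 372 and 346 in the low mice. All high mice were above (0.84 ± 0.28, adjusted p = 0.378), but the second experiment gave -0.37 with overlap. Ddit4l read 319, 442 and 206 against 95.2, 169.8 and 148 (1.16 ± 0.39, adjusted p = 0.379). Cdkn1a, the p21 inhibitor of the cell cycle, overlapped at 478, 711 and 367 against 552, 228 and 469 (0.35 ± 0.37, adjusted p = 0.831). In the second experiment it was apart upward, at 1.44, and Gadd45a too, at 0.95.
DNA repair genes had a median of 0.07, with 0 of 29 at an unadjusted p below 0.05. Of the 29, 2 were apart downward (6.9%, against 5.69% of all genes). Among them Lig1, the ligase of replication, differed by -0.53 ± 0.27 (adjusted p = 0.622). Cell cycle genes had a median of 0.03, with 0 of 20 at an unadjusted p below 0.05 and 1 apart downward (5%, against 5.69% of all genes). Rrm2, the small subunit of ribonucleotide reductase, was at -0.50 ± 0.25 (adjusted p = 0.601), and 1 of its 2 further probe sets had the opposite sign. Antioxidant genes had a median of 0.08 (-0.05 under quantile normalization). Gclc, which makes the first step to glutathione, was apart at 0.52 ± 0.13 (adjusted p = 0.218), and Hmox1, haem oxygenase, overlapped at -0.62 ± 0.20 (adjusted p = 0.349). Alas1, the first enzyme of haem synthesis, read 4219, 4622 and 4942 in the high mice and 12602, 12967 and 7754 in the low mice, apart by -1.24 ± 0.42 (adjusted p = 0.388), with -1.14 in the second experiment.

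**Figure D5:**
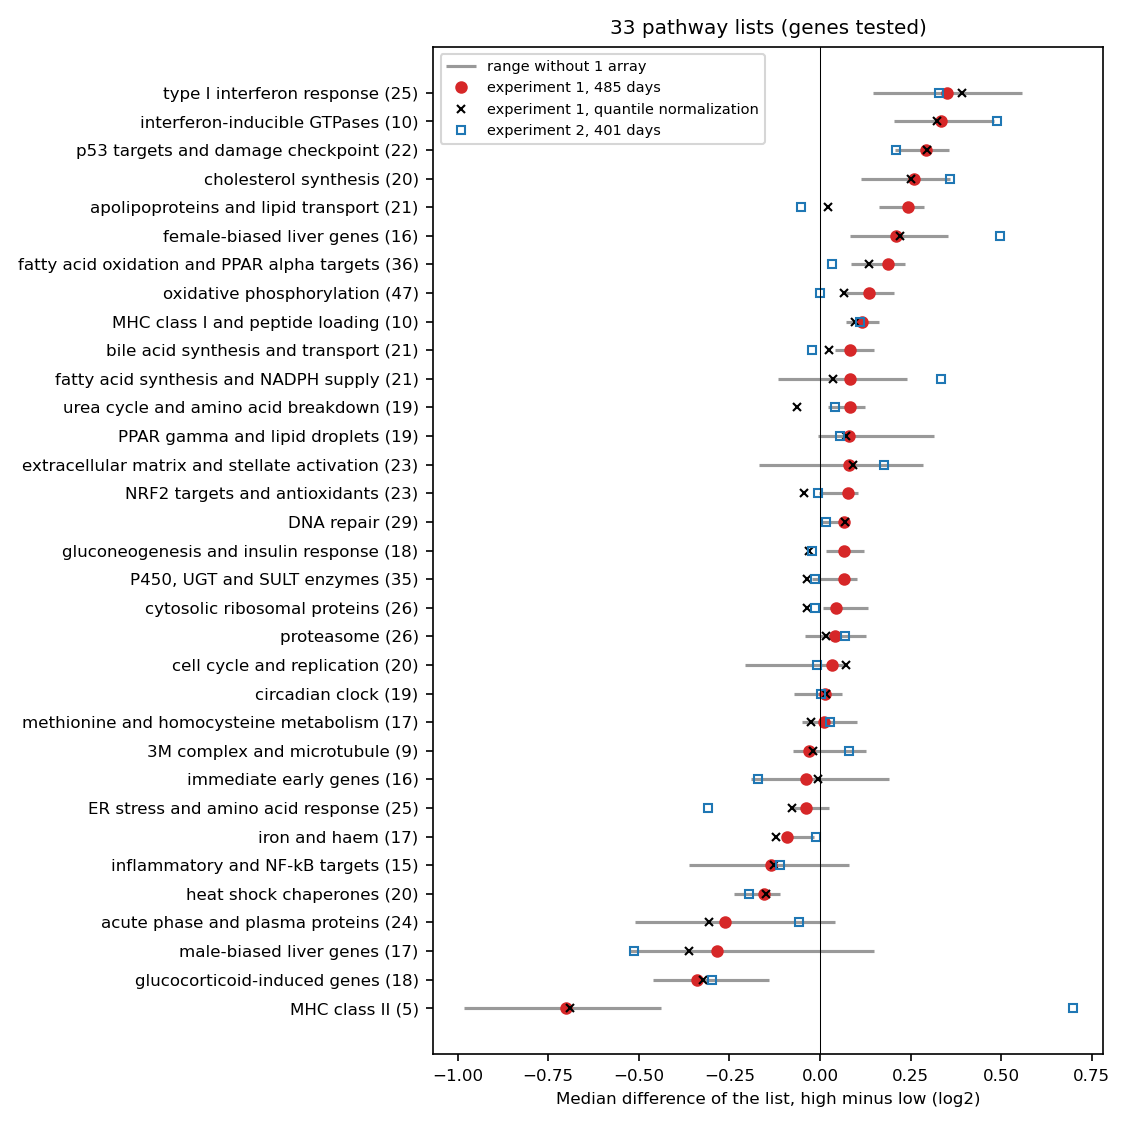
Median log2 difference, high minus low, of 33 gene lists, with the number of genes tested in brackets; circles are the first experiment, crosses the same after quantile normalization, grey bars the range when 1 array was left out, and squares the second experiment. MHC class II lies at -0.70 with its square at 0.70, and the bar of the acute phase list reaches from -0.51 to 0.04.

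Of the other pathway lists, proteasome, ribosomal protein, inflammatory, immediate early, extracellular matrix, lipid droplet, iron and haem, and 3M complex and microtubule genes had medians between -0.13 and 0.08, with 0 to 3 members apart in either direction. Of all genes tested, 5.8% were apart upward and 5.69% downward. Leaving out 1 array moved the inflammatory median between -0.36 and 0.08, the lipid droplet median between -0.005 and 0.32 and the extracellular matrix median between -0.17 and 0.29, with the lowest value in each case without low mouse 2. The median of ribosomal protein genes was 0.05, and -0.04 under quantile normalization. Immediate early genes were at -0.04 and 3M genes at -0.03, and after centring the arrays at 0.001 and 0.009. Cebpb, a transcription factor of inflammation and metabolism, was apart downward among the inflammatory genes, at 2994, 2825 and 2076 in the high mice and 4833, 3001 and 3776 in the low mice (-0.55 ± 0.18, adjusted p = 0.378). Endothelial markers had a median of 0.01 with 0 of 12 apart, and stellate cell markers a median of 0.13, which was -0.16 without low mouse 2. Markers of cholangiocytes, pancreatic acinar cells, adipocytes, erythroid cells, muscle and T cells left 2 to 4 genes a list above the filter. Their medians were -0.23 to 0.28, with 0 to 1 gene a list apart, against the same shares of all genes.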

How the data were processed

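Liver RNA was measured on Affymetrix mouse arrays. What the authors deposited is a linear signal intensity per probe set. It was computed with MAS5, per the submitters' processing notes, with no version given. Their mean after trimming 2% at each end was 500 on all 20 arrays, a scaling that leaves the shape of the distribution free. Gene names came from the platform annotation (34945 of 45101 probe sets with 1 symbol, 932 with several, 9160 with none, 64 controls).

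Signals were transformed as log2(signal + 7.12), the pseudocount being the 10th percentile of all signals, so that changes at low signal are understated. The filter kept 22519 probe sets, those whose mean reached the median of all. Each gene was read from 1 of them, the one of highest mean, with _s_at and _x_at probe sets used only where no other was left, giving 11216 genes. limma 3.58.1 in R 4.3.3 (lmFit, eBayes with trend) was fitted to all 20 arrays with 8 group means and 12 residual degrees of freedom, with two-sided contrasts. The 2 pools add no spread. The test was run on simulated data with independent normal noise for each gene. Those data lack correlation between genes and the block difference at high signal, so they do not check the p-values under such conditions. P-values measure the spread between these mice, and the number of arrays limits the precision. All calls use an adjusted p threshold of 0.05.

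Genes are named by rule: up to 15 passing genes a direction whose groups do not overlap, places up to 8 filled by smallest p, 5 for the difference between experiments, and 2 a list where none passed. Other genes were chosen after their values were seen. Members of the 45 lists (720 genes tested) and the rules were chosen with earlier results of these data known. Promoter windows come from RefSeq (GRCm38.p6). Correlations of deviations of same-numbered mice were 0.153, -0.021 and 0.024, and those of differently numbered mice -0.176 to 0.155. These values show no pairing by number, but so few cannot exclude it.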

Additional observations from a re-analysis of the deposited data

How the results depend on the processing

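The single gene called became 0 with a pseudocount of 1, quantile normalization, median-centred arrays, a fit to only the arrays compared or only experiment 1, no variance trend, robust eBayes, or the median over probe sets, and stayed 1 under the other settings that kept all 6 arrays; the cause was not tested. Leaving out 1 array gave 0 to 8 called genes (0 to 8 higher, 0 to 1 lower), with 8 without low mouse 3 and 2 without low mouse 2. With the replicate number as a block the count was 1, but the gene was Castor2 (adjusted p = 0.00864) and not Ppp1r3c. In the test between experiments the count of 0 became 1 with only the arrays compared and 0 to 2 without 1 array. Of 1881 values of named genes over the alternatives, 1844 kept their direction and their side of the threshold. Another 16 turned sign. With the median over probe sets these were Zfp148 (-0.12), Hspa5 (-0.002), Scd1 (-0.15) and Tuba4a (-0.008), with quantile normalization Scd1 (-0.074), Fabp1 (-0.028) and Fbp1 (-0.009), and with the top 30% of probe sets Rrm2 (0.16). Without 1 array, C6 ran from -1.08 to 0.001, Eng from -0.051 to 0.39, Epcam from -0.99 to 0.20, Prss2 from -0.34 to 1.71, Car1 from -0.32 to 0.21 and Tagln from -0.18 to 0.81. Of 808 list medians, 34 moved by more than the spread between mice. Signals near the array median limit what can be said of genes such as Lamb3, Castor2 and Per1.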
